A study of Mus musculus with 4 samples.

Results

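Chemokines are small secreted proteins that steer leukocytes, and the atypical chemokine receptors bind them without the usual G protein signal and clear or transport them. The 36 genes described here are 32 chemokine ligands (Ccl2, Ccl3, Ccl4, Ccl5, Ccl6, Ccl7, Ccl8, Ccl9, Ccl11, Ccl12, Ccl17, Ccl19, Ccl20, Ccl21a, Ccl22, Ccl24, Ccl25, Ccl28, Cxcl1, Cxcl2, Cxcl3, Cxcl5, Cxcl9, Cxcl10, Cxcl11, Cxcl12, Cxcl13, Cxcl14, Cxcl16, Cx3cl1, Xcl1 and Pf4) and the 4 atypical receptors Ackr1 to Ackr4. The list is made up by gene family, out of 29897 genes with a count in any library, and uses no threshold on a measured value. Of the 36, 35 had a row in the count tables, and Cxcl11 was not analysed here.

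The data are droplet single-cell RNA counts from dissociated mouse colon, with 2 control libraries and 2 libraries from mice given carbon tetrachloride, a liver toxicant, for 6 weeks from 6 weeks of age. All mice were specific pathogen free. The labels give no strain or sex, no age or duration for the controls, and do not say how many animals stand behind a library. P-values therefore measure only the spread between these libraries. With 2 libraries against 2, an exact permutation test of a single value could not fall below 2 in 6, so the tests are model fits across all genes. The gene Ccl4, a chemokine, is distinct from CCl4, the chemical, which is written out as carbon tetrachloride below.

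After filtering, 36523 cells were used, between 8103 and 10383 a library, from libraries of 55834301 to 92383719 counts. The cells were grouped by marker genes without using any of these chemokines, and 11 cell classes had at least 50 cells in every library. Each class name below means cells like that type by its markers, and in none of the 11 classes was any marker of its own at 0. The make-up of the cells differed between groups. Fibroblast-like cells were 28.0% and 27.5% of cells in control libraries 1 and 2 and 20.6% and 19.6% in treated libraries 1 and 2, T-like cells 11.6% and 11.5% against 8.19% and 6.91%, plasma-like cells 7.11% and 6.55% against 2.94% and 2.65%, and goblet-like cells 3.11% in both controls against 7.93% and 7.58%. The median share of mitochondrial counts in the cells used was 4.84% and 4.55% in controls and 7.51% and 6.85% in treated libraries. Levels are CPM, a gene's counts divided by all counts of the class in that library and scaled to 1e6, and they compare one gene across classes or libraries, never one gene with another.

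In the colon, macrophages are a known source of inflammatory CC chemokines, which bind receptors on monocytes and T cells, and of CXC chemokines that bind the neutrophil receptor Cxcr2. Epithelial cells make Ccl20, Ccl25 and Ccl28, which guide dendritic cells, T cells and IgA plasma cells, while Cxcl12 from stromal and endothelial cells holds haematopoietic cells in place through Cxcr4. Cxcl9 and Cxcl10 bind Cxcr3 on T cells; Cxcl9 is known mainly as a target of interferon gamma, and Cxcl10 responds to type I interferon and to nuclear factor kappaB as well.

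Promoters of 27 members were matched by symbol in RefSeq (GRCm38.p6), with 28 promoters in all. A kappaB motif, the binding pattern of nuclear factor kappaB, was searched on both strands in the 250 bases before each start and was found in 7 of these 28, against 7.25% of 32851 promoters of the same length. A pair of GAAA words 2 bases apart, an interferon-response pattern, was in 3 of 28 against 2.98%, TTCNNNGAA in 2 of 28 against 7.02%, and TATAAA in 10 of 28 against 12.4%. A match is a description of letters and shows no binding. Shown first are the windows around the kappaB match of 3 neutrophil-directed genes and of Ccl20, since Cxcl1, Cxcl2 and Ccl20 changed with treatment in some classes below. Capitals mark the kappaB match; in the 3 Cxcl genes it is the same 11 letters, in which 2 matches overlap. All 4 lie on the plus strand, at chr5:90891149-90891209, chr5:90903777-90903837, chr5:90786003-90786063 and chr1:83116661-83116720.
Cxcl1: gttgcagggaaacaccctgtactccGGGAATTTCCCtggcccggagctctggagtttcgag
Cxcl2: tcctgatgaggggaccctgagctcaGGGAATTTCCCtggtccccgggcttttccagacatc
Cxcl3: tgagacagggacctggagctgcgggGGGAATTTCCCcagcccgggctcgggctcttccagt
Ccl20: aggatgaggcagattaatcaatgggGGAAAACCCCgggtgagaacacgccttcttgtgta

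Cxcl9 and Cxcl10 are neighbours on chromosome 5, minus strand, with gene models at chr5:92321347-92328079 and chr5:92346638-92348889. Both are shown over the 250 bases before their start, at chr5:92328080-92328329 and chr5:92348890-92349139 on the minus strand, because they changed in opposite directions in fibroblast-like cells. Capitals mark kappaB matches and the GAAA pair. The Cxcl10 window held both motifs, and the Cxcl9 window held neither of these letter patterns.
Cxcl9: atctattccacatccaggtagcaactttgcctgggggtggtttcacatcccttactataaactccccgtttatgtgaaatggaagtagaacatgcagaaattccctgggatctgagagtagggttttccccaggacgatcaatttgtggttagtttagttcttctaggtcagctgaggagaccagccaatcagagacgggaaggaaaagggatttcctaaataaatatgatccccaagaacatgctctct
Cxcl10: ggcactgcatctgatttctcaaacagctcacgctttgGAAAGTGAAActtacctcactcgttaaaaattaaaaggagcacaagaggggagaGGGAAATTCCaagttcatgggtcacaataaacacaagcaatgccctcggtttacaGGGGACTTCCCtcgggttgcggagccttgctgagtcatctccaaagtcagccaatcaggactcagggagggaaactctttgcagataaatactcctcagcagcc

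Most members had 1 leading class, and many shared it: among the named classes, macrophage-like cells held the highest level of 15 of the 35 measured members and fibroblast-like cells of 7. For 26 of the 35, that class lay above the next named class in all 4 libraries with no overlap. Here and below, the next class is taken among named classes only, and unnamed clusters can lie between or above them. Ccl3 and Ccl4, inflammatory chemokines of macrophages, were at 1559 ± 255 and 1830 ± 375 CPM there (SD, n = 4 libraries), against 36.9 and 76.2 CPM in T-like cells, the next class. The monocyte-directed Ccl2 and Ccl7, ligands of Ccr2, were at 997 ± 70.1 and 1819 ± 52.8 CPM, with fibroblast-like cells next at 170 and 169 CPM. Ccl12, which also binds Ccr2, was at 308 CPM in macrophage-like cells and 0.951 CPM in T-like cells, and Ccl8 at 550 ± 141 against 14.6 CPM in fibroblast-like cells. Cxcl2, a neutrophil attractant, reached 9565 ± 890 CPM in macrophage-like cells and 95.3 CPM in T-like cells. Pf4, platelet factor 4, was at 2676 ± 220 CPM and was next highest in lymphatic-like cells, at 13.8 CPM. Cxcl1, another Cxcr2 ligand, was at 1050.0 ± 244 CPM against 499 CPM in glia-like cells, and Cxcl3 at 53.2 CPM against 11.8 CPM in T-like cells. Cxcl16, the ligand of Cxcr6, was at 401 CPM and Cxcl9 at 44.7 ± 31.8 CPM, with fibroblast-like cells next at 40.6 and 7.58 CPM. Ccl9 was at 220.0 CPM against 103 CPM in goblet-like cells, and Ccl24, which draws eosinophils, was at 34.5 CPM with the next class at 1.73 CPM. Ccl22 was at 1.58 CPM, with overlapping libraries.

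At a finer clustering, the macrophage-like cells fell into a cluster led by Cxcl2, Ccl4, Ccl3 and Ccl7, with C3ar1, Cd14 and Il1b after them, and a cluster led by F13a1, Pf4, Ccl8 and Mrc1. They are called the Il1b and Cd14 cluster and the resident cluster below. Ccl3 and Ccl4 were highest in the first, at 2214 and 2796 CPM, as was Cxcl2. Pf4 and Ccl8 were highest in the second, at 4285 and 1051 CPM. At the coarser clustering dendritic and B cell markers shared a cluster that took no name; at the finer one a dendritic-like cluster of 627 cells held the highest level of Ccl17 and Ccl22, ligands of Ccr4, at 50.7 and 60.5 CPM. Cxcl3 was also highest there, at 94.4 CPM. At the coarser clustering, the cluster of shared dendritic and B cell markers held Cxcl2 at 2885 and 1802 CPM in controls. Its treated libraries were at 2437 and 2266 CPM, scaled as in the tests below. Mean Ccl3 and Ccl4 there were 244.6 and 243.5 CPM in controls and 169.7 and 171 CPM in treated libraries.

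T-like cells held 93.0% of all counts of Ccl5, a chemokine of cytotoxic lymphocytes, at 1540 ± 388 CPM against 52.3 CPM in macrophage-like cells. They held 95.4% of the counts of Xcl1, the ligand of Xcr1 on cross-presenting dendritic cells, at 412 ± 59.6 CPM against 1.65 CPM in glia-like cells. A finer T-like cluster marked by Gzma and Gzmb had the highest Ccl5, at 3069 CPM.

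Stromal and vascular classes divided the homing chemokines and the scavenging receptors. Cxcl12 was at 1450 ± 71.1 CPM in endothelial-like cells and 1090 ± 45.5 CPM in fibroblast-like cells, and an Adamdec1-positive fibroblast-like cluster reached 2305 ± 159 CPM. Among the 7 members highest in fibroblast-like cells, the eosinophil attractant Ccl11 was at 283 ± 10.3 CPM, with smooth-muscle-like cells next at 46.0 CPM. Cxcl13, the B cell attractant, was at 43.4 CPM against 13.3 CPM in the next class, and Cxcl14 at 34.5 CPM, where the libraries overlapped with those of smooth-muscle-like cells at 33.4 CPM. Cxcl5, a ligand of Cxcr2, was low at 5.23 CPM, with the next class overlapping, and Ccl19, a ligand of Ccr7, had 29 counts in all.

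The 4 scavenging receptors differed in their place. Fibroblast-like cells held 97.2% of the counts of Ackr4, which clears Ccl19, Ccl21 and Ccl25, at 365 ± 115 CPM against 16.5 CPM in the next class. Within them Ackr4 was highest in a Grem1 and Inmt cluster (637 CPM) and a Pi16 cluster (512 CPM), and the Pi16 cluster reached 634.5 CPM for Ackr3, the scavenger of Cxcl12. By class Ackr3 was highest in lymphatic-like cells, at 538 ± 64.9 CPM, and next in fibroblast-like cells, at 279 CPM. Ackr2, which clears inflammatory CC chemokines, was at 139.7 ± 39.1 CPM in lymphatic-like cells and 6.56 CPM in fibroblast-like cells. Ackr1, the chemokine carrier of venules, was at 18.8 CPM in the fibroblast-like and 12.4 CPM in the glia-like class, but at 398 ± 120 CPM in a finer endothelial-like cluster with Selp and Vwf. Lymphatic-like cells also held 93.1% of the counts assigned to Ccl21a, at 3378 ± 541 CPM against 3.54 CPM in T-like cells; near-identical copies of this gene exist, so that value is uncertain as to the copy.

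Epithelial and plasma-like cells held the rest. Ccl28, which attracts IgA plasma cells, was at 66.9 ± 8.12 CPM in epithelial-like cells of no further type and 47.6 CPM in colonocyte-like cells, and Ccl20, the ligand of Ccr6, at 20.2 CPM in the former and 13.4 CPM in goblet-like cells. Among named classes, goblet-like cells had the highest Ccl6, a CC chemokine of rodents, at 836 ± 140 CPM against 453 ± 92.4 CPM in macrophage-like cells. They held 75.2% of its counts. The unnamed cluster of dendritic and B cell markers had Ccl6 at 602.9 and 586.9 CPM in controls and 285.6 and 284.5 CPM in treated libraries. Its neighbour in the same family, Ccl9, was split between goblet-like cells (43.0% of counts) and macrophage-like cells (37.1%). Cxcl10 was highest in plasma-like cells, at 1131 ± 218 CPM against 665 ± 137 CPM in macrophage-like cells. The membrane-bound Cx3cl1 was at 33.7 CPM in endothelial-like and 30.04 CPM in colonocyte-like cells, with overlapping libraries. Ccl25, which draws Ccr9-positive T cells, was low in every named class, with the small enteroendocrine-like class first at 13.2 ± 19.9 CPM, a mean below its own SD. Cells of no named class were at 14.15 CPM and held 34.6% of its counts. Those cells also lay above every named class for Ccl17 (4.46 CPM), Ccl22 (5.67 CPM) and Ackr1 (40.55 CPM).

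**Figure D1:**
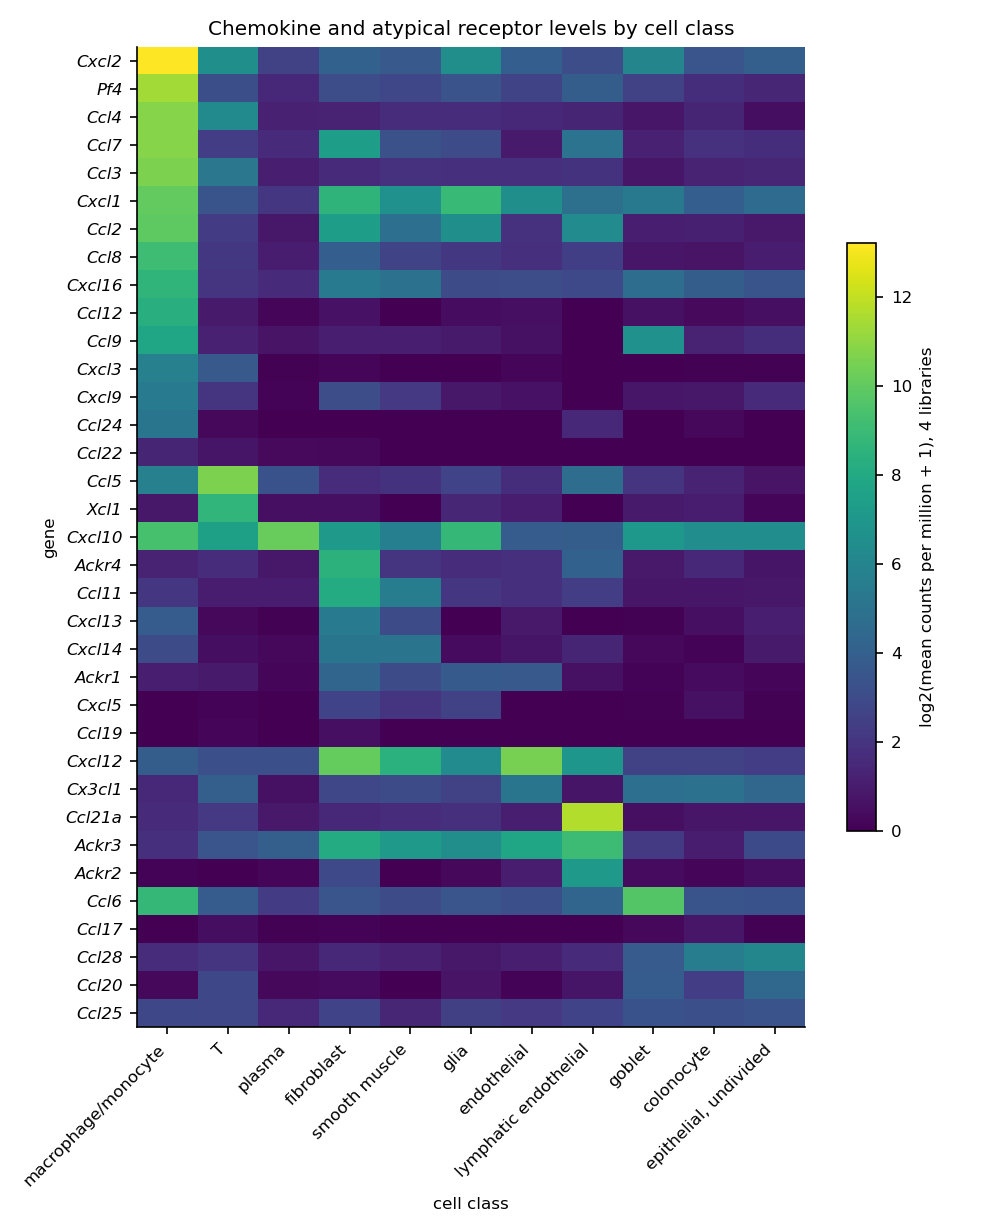
Mean level over the 4 libraries, as log2 of CPM plus 1, for 35 genes (vertical axis) in 11 cell classes (horizontal axis). Macrophage-like cells have the brightest cell, which is the highest level, for 15 genes. Ccl5 and Xcl1 stand out in T-like cells, Ccl21a in lymphatic-like cells and Ccl6 in goblet-like cells.

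Changes with carbon tetrachloride were tested on the summed counts of each class and library, with edgeR's quasi-likelihood test and Benjamini-Hochberg adjustment over all genes of the class at 0.05. Over the 11 classes there were 160 tests of members, with 32 members tested in at least 1 class; Ccl17, Ccl19, Ccl22 and Cxcl11 were tested in none. Of the 160, 22 passed, 14 higher and 8 lower in treated libraries, over 16 members, against 1.18% of all gene tests over the same classes (0.765% higher and 0.414% lower). In all 22 the values of the 2 groups did not overlap. With 2 libraries a group, passing nearly requires this, so it adds no support.

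By class, 6 of 27 members passed in fibroblast-like cells (1.96% of all genes there), 4 of 21 in macrophage-like cells (1.39%), 3 of 19 in colonocyte-like cells (1.77%) and 3 of 10 in smooth-muscle-like cells (2.38%). In goblet-like cells 2 of 15 passed (0.996%), in glia-like cells 2 of 7 (0.641%), in endothelial-like cells 1 of 12 (0.572%) and in T-like cells 1 of 20 (0.488%). None passed of 11 in epithelial-like cells of no further type (0.292%), 7 in lymphatic-like cells (0.128%) or 11 in plasma-like cells (1.64%), where 1, 3 and 1 members had an unadjusted p under 0.05 in edgeR, against 9.81%, 7.62% and 13.6% of all genes of those classes at that unadjusted threshold. The members' median log2 change lay farthest from that of all genes in glia-like cells (-0.64 against 0.0042) and smooth-muscle-like cells (0.61 against -0.00084), classes with 7 and 10 members tested. It was also below in T-like (-0.28 against 0.00088), lymphatic-like (-0.23 against 0.0085) and goblet-like cells (-0.15 against 0.0017). It was above in epithelial-like cells of no further type (0.21 against -0.00076), plasma-like (0.18 against -0.0040) and colonocyte-like cells (0.17 against 0.0047). The rest were macrophage-like (0.058 against -0.0083), endothelial-like (0.048 against -0.0044) and fibroblast-like cells (0.023 against -0.0052).

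**Figure D2:**
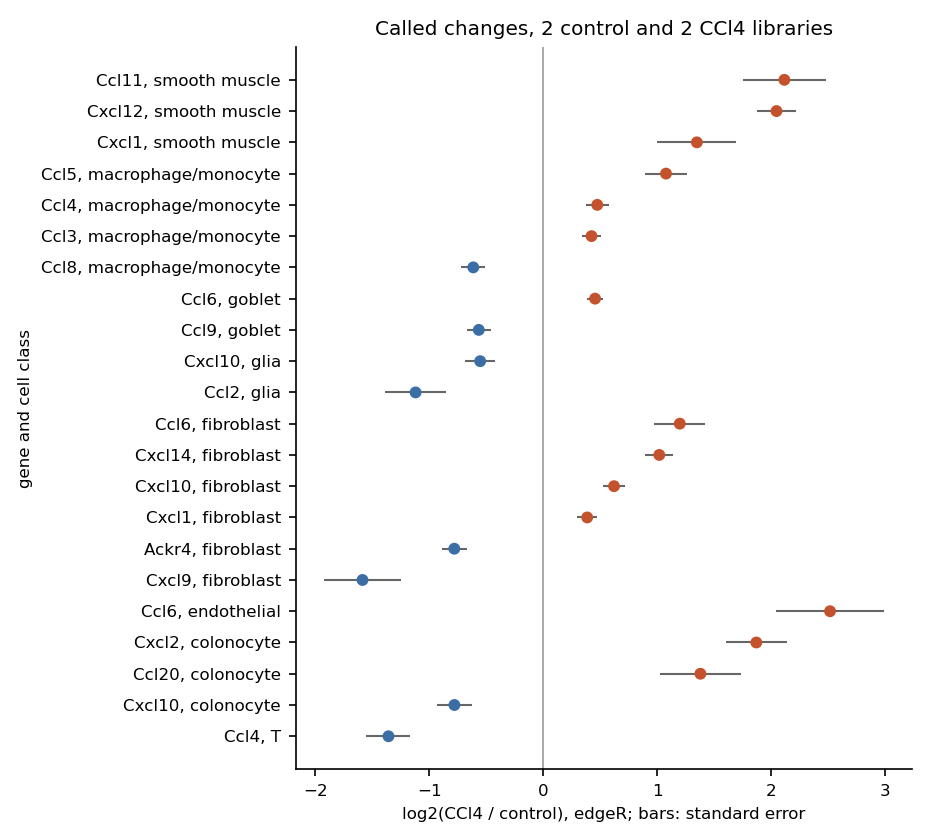
Log2 change, treated over control, with its standard error, for the 22 combinations of member and class that passed. The changes run from -1.59 for Cxcl9 in fibroblast-like cells to 2.52 for Ccl6 in endothelial-like cells.

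In macrophage-like cells Ccl3, Ccl4 and Ccl5 rose and the monocyte attractant Ccl8 fell. Ccl5 was at 36.8 and 31.4 CPM in the controls and 74.2 and 69.4 CPM in the treated libraries (these and the following values are scaled by the trimmed mean of M-values, TMM). Both treated libraries lay above both controls, a log2 change of 1.08 ± 0.18 (log2 changes are given ± SE; edgeR adjusted p = 0.00254). Ccl3 was at 1397 and 1296 CPM against 1846 and 1766 CPM, which was 0.42 ± 0.087 higher (adjusted p = 0.0140). Ccl4 was at 1354 and 1742 CPM against 2205 and 2095 CPM, 0.47 ± 0.10 higher (adjusted p = 0.0185); DESeq2 gave an adjusted p of 0.373 for it, and without control library 1 the change was 0.31 (edgeR adjusted p = 0.0738). Without treated library 1 the adjusted p of Ccl3 was 0.0617. Ccl8 went the other way, from 723 and 622 CPM to 448 and 430.0 CPM, a log2 change of -0.61 ± 0.11 (adjusted p = 0.00279). Of those not past the threshold, the lowest p-values were for Cxcl2, at 8866 and 8881 CPM against 10850 and 10070 CPM (adjusted p = 0.0875), and Ccl6, at 587 and 462 CPM against 409 and 372 CPM (adjusted p = 0.0897). Ccl2, Ccl7, Ccl12, Cxcl16 and Pf4 changed by between -0.12 and 0.13 on the log2 scale and did not pass.

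The make-up of this class moved with these values. Its resident macrophage markers summed to 3356 and 3205 CPM in controls and 2509 and 2395 CPM in treated libraries, with 5 of 5 lower. Its inflammatory monocyte markers summed to 935 and 853 against 1122 and 1264 CPM, with 3 of 6 higher. Here and below, a marker counts as lower or higher when both treated libraries lay on that side of both controls. The share of all genes that did so is not given, so these counts only describe the markers. T cell markers in the class summed to 19.3 and 23.03 against 31.2 and 46.0 CPM, with 4 of 7 higher. The part of these in the changes of Ccl3, Ccl4, Ccl5 and Ccl8 was not tested. Within the finer clusters, Ccl5 rose in the Il1b and Cd14 cluster from 51.2 and 45.8 to 105 and 103 CPM (log2 change 1.10, edgeR adjusted p = 0.00371; 2 of 20 members passed, against 0.573% of genes). Ccl3 and Ccl4 each had a log2 change of 0.35 there and did not pass (adjusted p = 0.149 and 0.220). Ccl8 fell within the resident cluster, from 1341 and 1170 to 933 and 857 CPM (log2 change -0.49, adjusted p = 0.0273; 3 of 18 members, against 0.942% of genes). Ccl6 and Cxcl10 fell there too, by 0.70 (adjusted p = 0.0181) and 0.87 (adjusted p = 0.00631) on the log2 scale. Cxcl9 fell by 1.64 in the Il1b and Cd14 cluster (adjusted p = 0.00753), from 47.5 and 149 CPM, a wide spread between the controls, to 21.8 and 41.7 CPM.

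Other genes of the chemokine system in macrophage-like cells also moved. Ccrl2, a receptor that presents chemerin, rose by 0.53 (edgeR adjusted p = 0.00960). Over the 11 classes it was the single change among 48 tests of a list of 19 chemokine receptors, and none fell. Ifnb1, interferon beta, rose by 2.24 (adjusted p = 1.44e-04), from 13.4 and 8.91 to 63.8 and 40.5 CPM. Of 16 interferon-response genes, Rsad2 and Ifit1 rose, by 0.79 and 1.76, and Iigp1, Gbp2 and Irf1, which respond to interferon gamma, fell by 2.46, 1.34 and 0.53 on the log2 scale. The immediate early genes Egr1 and Fosb rose by 0.39 and 0.45.

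At the finer clustering, a cluster led by the type 2 genes Gata3, Il5, Il4 and Il13 had Cxcl2 at 878 and 368 CPM in the controls and 1153 and 1077 CPM in the treated libraries (log2 change 0.84, edgeR adjusted p = 0.0375; 1 of 4 members passed, against 0.794% of genes). At the coarser clustering, the cluster of 567 cells with the same leading genes gave an edgeR adjusted p = 0.0612 for Cxcl2, which did not pass. The controls lay far apart, and both treated libraries lay above both.

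Ccl17 rose in the dendritic-like cluster. It was at 12.8 and 8.29 CPM in the controls and 103 and 86.2 CPM in the treated libraries, with both treated libraries far above either control. The log2 change was 3.21 (edgeR adjusted p = 1.15e-04; 2 of 16 members passed in the cluster, against 0.258% of genes), from 115, 142, 192 and 178 cells. Ccl22, the other Ccr4 ligand, was at 38.4, 38.3 and 37.7 CPM in 3 libraries and at 134 CPM in treated library 2, and its change did not pass (adjusted p = 0.426). Ccl6 fell in the same cluster by 0.83 (adjusted p = 0.00931), from 752.5 and 648.5 to 400.5 and 388 CPM.

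In T-like cells Ccl4 fell while it rose in macrophage-like cells. Its level was 93.8 and 128 CPM in the controls and 49.0 and 37.0 CPM in the treated libraries, with no overlap, a log2 change of -1.36 ± 0.19 (edgeR adjusted p = 0.00978). The share of T-like cells with a Ccl4 count was 6.34% in controls and 3.80% in treated cells, or 4.44% and 2.10% when every cell was thinned to 1000 counts. In colonocyte-like cells, taken as background, it was 0.816% and 1.05%, or 0.0816% and 0.111% thinned; median depths were 3080 and 3075 counts in T-like and 9597 and 10140 in colonocyte-like cells. Ccl5 was at 2061 and 1685 against 1435 and 1061 CPM and did not pass (log2 change -0.58, adjusted p = 0.169), and Xcl1 changed by 0.20 (adjusted p = 0.772). Markers of CD8 and intraepithelial lymphocytes in the class summed to 1695 and 1231 CPM in controls and 730 and 587.5 CPM in treated libraries, with 4 of 5 lower. Macrophage markers in the class, where Ccl4 is most abundant, summed to 65.5 and 48.6 against 67.6 and 56.9 CPM. Within the finer Gzma and Gzmb cluster Ccl4 still fell, from 160 and 234 to 74.1 and 78.3 CPM (log2 change -1.38, adjusted p = 1.30e-04; 1 of 10 members, against 0.842% of genes). Among cytokines that induce chemokines, Il17a and Ifng fell in T-like cells, by 1.67 (adjusted p = 0.0162) and 0.69 (adjusted p = 0.0395) on the log2 scale, and the stress genes Dnajb1 and Hspa1a by 0.76 and 0.64.

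The difference between classes was itself tested with a class by treatment term in edgeR, for 76 combinations of a member and 2 classes. Each takes a member called in 1 of the classes, so no share is read from them. The change of Ccl4 was 1.84 lower in T-like than in macrophage-like cells (adjusted p = 1.82e-06), and that of Ccl5 was 1.67 higher in macrophage-like than in T-like cells (adjusted p = 1.65e-05). For Cxcl10 the change in fibroblast-like cells exceeded that in colonocyte-like cells by 1.37 (adjusted p = 1.49e-04), in glia-like cells by 1.18 (adjusted p = 0.00403) and in T-like cells by 1.14 (adjusted p = 0.00405).

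**Figure D3:**
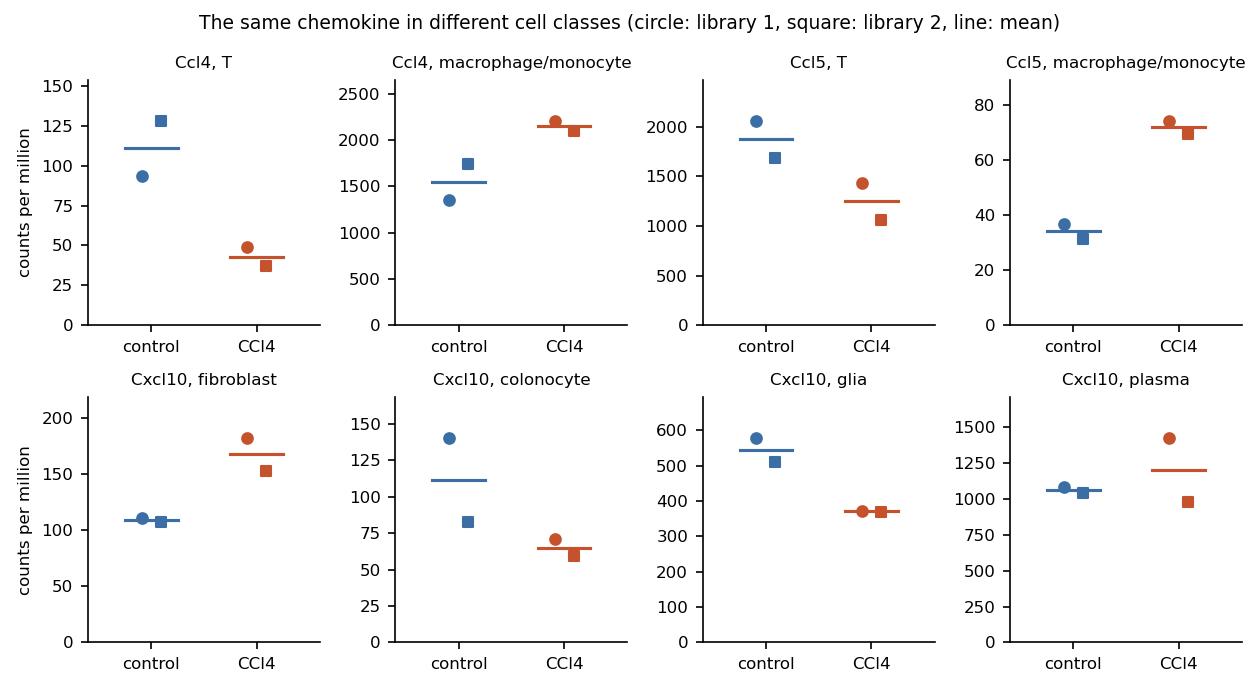
CPM in each library for Ccl4 and Ccl5 in T-like and macrophage-like cells and for Cxcl10 in fibroblast-, colonocyte-, glia- and plasma-like cells. Ccl4 is lower in both treated libraries in T-like cells and higher in both in macrophage-like cells; Cxcl10 is higher in fibroblast-like cells and lower in colonocyte- and glia-like cells, and its plasma values overlap.

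Cxcl10 and Cxcl9 changed in opposite directions in fibroblast-like cells. Cxcl10 was at 110.8 and 107.8 CPM in controls and 182 and 153 CPM in treated libraries, 0.62 ± 0.095 higher (edgeR adjusted p = 0.00249; without control library 2, 0.0507). Cxcl9 was at 15.8 and 7.25 against 4.24 and 3.33 CPM, a log2 change of -1.59 ± 0.34 (adjusted p = 0.0253). Treated libraries were low throughout for Cxcl9, but the controls differed from each other, and without control library 1 the change was -0.92 (adjusted p = 0.351). At the finer resolution the class gave -1.19 (adjusted p = 0.0553), and with genes not scaled -1.16 (adjusted p = 0.0707). Both changes were present within the Adamdec1-positive cluster, at 0.59 for Cxcl10 (adjusted p = 0.00201) and -2.13 for Cxcl9 (adjusted p = 9.36e-05; 2 of 20 members, against 2.35% of genes). Iigp1 fell by 0.54 in fibroblast-like cells (adjusted p = 0.0159) and Il6, an inflammatory cytokine, rose by 0.61 (adjusted p = 0.00914), as did the immediate early gene Fosb by 0.39.

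Fibroblast-like cells had less of the scavenging receptor Ackr4 (chr9:104084157-104126933, minus strand). The controls were at 468 and 459 CPM and the treated libraries at 311 and 228 CPM, with no overlap, a log2 change of -0.78 ± 0.11 (edgeR adjusted p = 0.00138). Ackr4 counts were found in 37.6% of these cells in controls and 29.5% in treated libraries (22.5% and 15.4% thinned), against a background of 0.634% and 0.393% in T-like cells (0.317% and 0.262% thinned), with median depths of 3896 and 4136 counts in fibroblast-like cells. Markers of the fibroblast types that hold most of it also moved, and their part was not tested: Grem1-type markers summed to 2902 and 3006 against 2387 and 1985 CPM (3 of 5 lower), and Pi16-type markers to 2307 and 2466 against 2002 and 1809 CPM (5 of 6 lower). Within the Grem1 and Inmt cluster Ackr4 was at 733 and 795.5 against 588 and 450.5 CPM (log2 change -0.55, adjusted p = 0.0663, with 0 of 19 members past the threshold against 0.478% of genes). Within the Pi16 cluster it was at 631.5 and 583 against 481 and 373 CPM (-0.51, adjusted p = 0.0536). Neither passed, though in each both treated libraries lay below both controls. The change of Ackr3 in fibroblast-like cells was 0.019 (adjusted p = 0.962), and Ackr1 and Ackr2 did not pass in any class tested.

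Cxcl14, Ccl6 and Cxcl1 were higher in treated fibroblast-like cells. Cxcl14, a chemokine of stromal and epithelial cells, was at 20.98 and 24.6 CPM in controls and 45.02 and 47.6 CPM in treated libraries, with no overlap and a log2 change of 1.02 ± 0.12 (edgeR adjusted p = 2.71e-04; 0.89 with an adjusted p of 0.0662 for the class at the finer resolution). In a separate cluster led by Bmp5 and Pdgfra, where Cxcl14 was highest, it was at 189 and 183.5 against 388 and 312 CPM, which did not pass (0.91, adjusted p = 0.127; 0 of 13 members, against 0.0727% of genes). Cxcl1 was at 360.0 and 310.0 against 459 and 415 CPM, 0.39 ± 0.090 higher (adjusted p = 0.0401). This call was lost without control library 2 (0.28, adjusted p = 0.218) and without treated library 1 (0.31, adjusted p = 0.275), and with stricter cells the adjusted p was 0.0592. In the Pi16 cluster alone Cxcl1 rose from 396 and 395 to 545.5 and 592 CPM (0.52, adjusted p = 0.0119; 1 of 16 members, against 0.368% of genes). Cxcl13 was at 33.2 and 36.7 against 63.2 and 40.8 CPM and did not pass (adjusted p = 0.0913).

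In the named smooth-muscle-like class Cxcl12, Ccl11 and Cxcl1 rose. Cxcl12 (chr6:117168535-117181367, plus strand) was at 166 and 112 CPM in controls and 541 and 609.7 CPM in treated libraries, a log2 change of 2.05 ± 0.17 (edgeR adjusted p = 1.86e-09). Both treated libraries lay at more than 3 times either control. Ccl11 was at 21.2 and 13.6 against 63.3 and 88.7 CPM, 2.12 ± 0.37 higher (adjusted p = 3.56e-04). Fibroblast-like cells held 61.7% of all counts of Cxcl12 and 87.9% of those of Ccl11. The changes there were 0.052 for Cxcl12 and -0.078 for Ccl11. The class by treatment difference was 2.001 for Cxcl12 (edgeR adjusted p = 2.44e-06) and 2.20 for Ccl11 (adjusted p = 6.46e-04). Cxcl1 was at 98.7 and 18.5 against 124 and 175 CPM (1.35 ± 0.35, adjusted p = 0.0274), with the controls far apart; without control library 2 the change was 0.58 (adjusted p = 0.320), without treated library 2 it was 1.07 (adjusted p = 0.302), without control library 1 it was 2.98, and DESeq2 gave an adjusted p of 0.978. Cxcl10 was at 52.5 and 20.97 against 64.3 and 69.8 CPM and did not pass (edgeR adjusted p = 0.240). The interferon-response gene Ifit3 rose by 2.67 (adjusted p = 0.0133) and Egr1 by 0.75. An unnamed cluster of 1082 cells had smooth muscle markers without a clear lead over vascular mural markers. Cxcl12 there was at 103.1 and 89.4 against 109.5 and 76.3 CPM and did not pass (log2 change -0.037, edgeR adjusted p = 0.978). Nor did Ccl11 (0.21, adjusted p = 0.864) or Cxcl1 (0.45, adjusted p = 0.155).

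Fibroblast markers moved with the values of the named smooth-muscle-like class. Within smooth-muscle-like cells the 8 fibroblast markers summed to 4536 and 4525 CPM in controls and 8470 and 9792 CPM in treated libraries, with 8 of 8 higher, while the 7 smooth muscle markers fell from 25840 and 28010 to 20970 and 19120 CPM, with 7 of 7 lower. Endothelial markers summed to 164 and 193 against 362 and 559 CPM, with 7 of 8 higher. None of these markers was at 0 in the class, and their part in the rise of Cxcl12, Ccl11 and Cxcl1 was not tested. The share of smooth-muscle-like cells with a Cxcl12 count went from 23.9% to 41.1% (7.44% to 22.7% thinned; median depths 3386 and 4045 counts), while in T-like cells it was 2.22% and 1.57% (0.899% and 0.917% thinned).

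**Figure D4:**
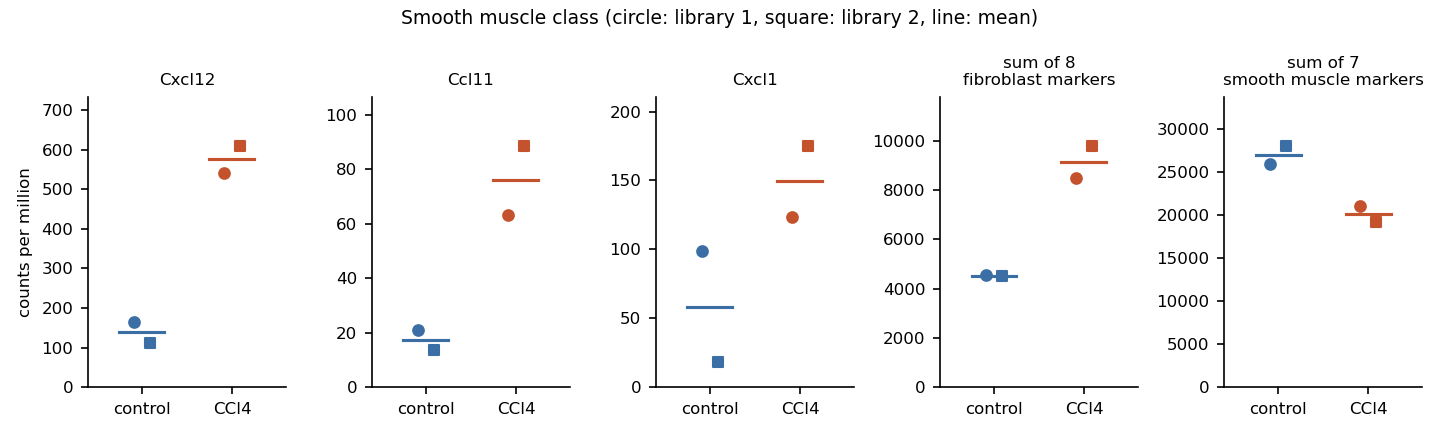
CPM in each library within smooth-muscle-like cells for Cxcl12, Ccl11 and Cxcl1 and for the summed fibroblast and smooth muscle markers. The treated libraries are higher for the 3 chemokines and for the fibroblast markers, and lower for the smooth muscle markers.

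In glia-like cells Cxcl10 and Ccl2 were lower after treatment. Cxcl10 was at 578 and 511 CPM in controls and 372 and 369.7 CPM in treated libraries, a log2 change of -0.55 ± 0.13 (edgeR adjusted p = 0.0370). Ccl2 was at 169 and 97.5 against 47.0 and 77.9 CPM, -1.12 ± 0.27 (adjusted p = 0.0392). DESeq2 gave adjusted p-values of 0.0992 and 0.302, and without control library 1 the changes were -0.46 (edgeR adjusted p = 0.264) and -0.66 (adjusted p = 0.437), so neither call held without it. Without treated library 1 the adjusted p-values were 0.189 and 0.566, and without treated library 2 that of Cxcl10 was 0.260. Macrophage markers in the class summed to 103 and 84.5 against 132 and 125 CPM, and plasma cell markers to 1055 and 858 against 503 and 3318 CPM. Cxcl12 was at 163 in control library 1 and between 52.7 and 69.6 CPM in the other 3 libraries, and did not pass (adjusted p = 0.0937), nor did Cxcl2, whose groups overlapped (adjusted p = 0.298).

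Colonocyte-like cells had more of the Cxcr2 ligand Cxcl2 and of Ccl20, and less Cxcl10. Cxcl2 was at 4.98 and 3.70 CPM in controls and 20.2 and 11.7 CPM in treated libraries, all low, with a log2 change of 1.87 ± 0.27 (edgeR adjusted p = 3.34e-04). Markers of macrophages, in which Cxcl2 is far more abundant, summed within the class to 61.7 and 54.2 against 52.8 and 52.4 CPM, and their part in the result was not tested. When doublets were kept the change was 0.77 (adjusted p = 0.162), and with no low-count filter the adjusted p was 0.110. Cxcl10 was at 140.2 and 82.8 against 71.0 and 59.0 CPM (-0.78 ± 0.15, adjusted p = 0.00804); without control library 1 it was -0.34 (adjusted p = 0.0771), and DESeq2 gave 0.729. Plasma cell markers in the class, which include abundant antibody transcripts, summed to 763 and 761 against 517 and 461 CPM, with 4 of 7 lower, and their part in the fall of Cxcl10 was not tested. Ccl20 was at 2.23 and 2.61 against 7.38 and 5.22 CPM (1.38 ± 0.35, adjusted p = 0.0484), a call lost in 8 of 11 alternatives, with an adjusted p of 0.255 by DESeq2 and, by edgeR, 0.0515 without control library 1, 0.464 without treated library 1 and 0.0610 without treated library 2. Cxcl1 and Xcl1 had adjusted p-values of 0.198 and 0.234 and did not pass. Members of other lists also fell in colonocyte-like cells: Isg15, Irf7 and Irf1 of the interferon-response genes fell by 0.82, 0.57 and 0.46, and Nfkbia and Nfkbiz, feedback genes of nuclear factor kappaB, by 0.44 and 0.36, as did Egr1 and Ier3, by 0.39 and 0.40. A finer colonocyte-like cluster had Ccl20 at 0.692 and 1.26 CPM in controls and 7.20 and 7.21 CPM in treated libraries (2.87, adjusted p = 0.00430; 3 of 13 members passed, against 1.17% of genes), with Cxcl2 2.26 higher (adjusted p = 0.00421) and Cxcl10 lower by a log2 change of -1.36 (adjusted p = 5.95e-04). In epithelial-like cells of no further type Cxcl2 was at 9.84 and 9.31 against 23.7 and 17.6 CPM and did not pass (adjusted p = 0.376).

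Goblet-like cells had more Ccl6 and less Ccl9, 2 neighbours on chromosome 11. Ccl6 was at 720.5 and 698 CPM in controls and 996 and 948 CPM in treated libraries, 0.45 ± 0.073 higher (edgeR adjusted p = 0.00739), and was found in 62.8% of control and 71.0% of treated cells (32.9% and 43.8% thinned; median depths 11850 and 12070 counts). Ccl9 was at 115 and 131 against 77.5 and 88.5 CPM, -0.57 ± 0.11 (adjusted p = 0.0210; without treated library 1, -0.47 with an adjusted p of 0.135). With stricter cells the adjusted p was 0.0822 for Ccl6 and 0.156 for Ccl9. Muc2, the gel-forming mucin of goblet cells, fell by 0.50 in the same cells (adjusted p = 0.00870), so Ccl6 rose per Muc2 count, from 10.3 and 8.09 to 17.1 and 18.0 counts per 100 Muc2 counts. The feedback gene Tnip3 fell by 0.65 and Tnfaip3 by 0.42. Ccl20 was at 16.9 and 17.1 against 10.6 and 9.12 CPM and did not pass (adjusted p = 0.133), nor did Cxcl2 (adjusted p = 0.168), while its change in colonocyte-like cells was 2.16 above that in goblet-like cells (class by treatment adjusted p = 0.00330).

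Ccl6 was also higher in classes where it was scarce. In endothelial-like cells it was at 2.92 and 2.14 CPM in controls and 16.9 and 12.4 CPM in treated libraries (2.52 ± 0.47, edgeR adjusted p = 0.0116; without treated library 1, 2.27 with an adjusted p of 0.253). In fibroblast-like cells it was at 6.99 and 5.22 against 13.6 and 14.4 CPM (1.198 ± 0.22, adjusted p = 0.0112; without control library 2 the adjusted p was 0.106). Values of 8.62 and 6.44 against 17.2 and 21.5 CPM in T-like cells (adjusted p = 0.189) and of 1.88 and 1.03 against 5.56 and 7.28 CPM in plasma-like cells (adjusted p = 0.0762) did not pass. Muc2 rose in each of these classes as well, by 1.45 in endothelial-like, 1.65 in fibroblast-like, 1.68 in T-like and 1.84 in plasma-like cells, and goblet markers as a whole summed to 142 and 115 against 333 and 330 CPM in fibroblast-like cells, with 8 of 8 higher, and to 123 and 141 against 317 and 281 CPM in endothelial-like cells, with 6 of 8 higher. Per 100 Muc2 counts, Ccl6 fell from 15.4 and 14.7 to 10.7 and 11.4 in fibroblast-like cells. It rose from 7.92 and 4.92 to 14.3 and 12.2 in endothelial-like cells. In goblet-like cells this ratio rose from 10.3 and 8.09 to 17.1 and 18.0. In macrophage-like cells it fell from 1598 and 1229 to 347 and 399. Free RNA gives counts in droplets of cells that do not express a gene, and its part in the scarce Ccl6 was not tested.

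**Figure D5:**
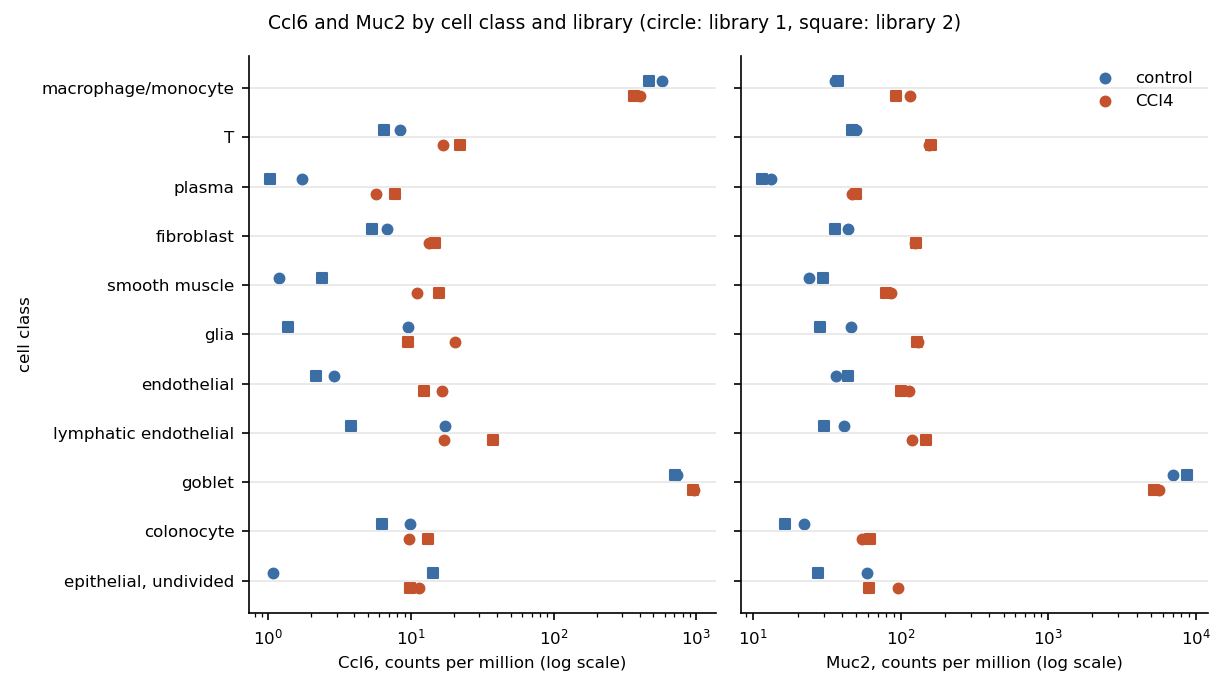
CPM of Ccl6 and of Muc2 by class and library, on a log axis. Muc2 is higher in both treated libraries than in either control in each of the 11 tested classes except goblet-like cells, and Ccl6 in endothelial- and fibroblast-like cells rises beside it, while in goblet-like cells Ccl6 is higher and Muc2 lower.

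Only Ccl6 passed in endothelial-like cells (1 of 12 members, against 0.572% of genes). In lymphatic- and plasma-like cells 0 of 7 and 0 of 11 members passed (0.128% and 1.64% of genes). At the finer clustering 1 of 11 members passed in the plasma-like cluster, for which the share of all genes is not given. Cxcl12 in endothelial-like cells, its highest class, was at 1404 and 1530 against 1472 and 1438 CPM, with overlapping groups and a log2 change of -0.012 ± 0.090 (edgeR adjusted p = 0.983). Cxcl1 there was at 109.5 and 108.5 against 87.3 and 84.1 CPM (adjusted p = 0.355), and Ackr3 had an adjusted p of 0.477. Rsad2 fell by 0.50 and Hspa8 rose by 0.49 in endothelial-like cells. In lymphatic-like cells Ackr2 was at 107.5 and 124 against 182 and 199 CPM and Cxcl12 at 63.0 and 86.5 against 125 and 258 CPM, with no overlap, but neither passed (adjusted p = 0.639 and 0.409). These came from 62 to 107 cells a library, and the fibroblast gene Col1a2 rose by 4.62 in the same cells (adjusted p = 5.45e-04). Cxcl10 in plasma-like cells, its highest class, was at 1083 and 1045 against 1425 and 979 CPM, with overlapping groups (0.18, adjusted p = 0.697).

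Over the 11 classes, the genes that act with chemokines moved as follows. Over all genes, 0.765% of these tests rose and 0.414% fell, which is the share to set beside each list. Among 130 tests of interferon-response genes, 3 rose and 9 fell, and among 128 tests of feedback genes of nuclear factor kappaB, none rose and 4 fell. Of 31 tests of cytokines that induce chemokines, 2 rose (Ifnb1 in macrophage-like and Il6 in fibroblast-like cells) and 2 fell (Il17a and Ifng in T-like cells). Among 9 tests of other chemokine ligands none passed. Beside them, 7 of 154 tests of immediate early genes, which respond to tissue dissociation, rose and 4 fell, and 35 of 136 tests of mitochondrial genes rose. Of 127 tests of abundant transcripts that tend to leak from broken cells, such as Muc2 and the antibody gene Igha, 27 rose and 19 fell. The part of these in the members' changes was not tested.

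Summed over all cells of a library, 7 of 34 members passed (2.73% of genes), and there fewer cells of a type and less RNA per cell cannot be told apart. Ackr4 fell by 1.30 (edgeR adjusted p = 0.0163), from 103 and 92.8 to 46.8 and 32.7 CPM, more than within fibroblast-like cells, which were also fewer. Ccl5 fell by 1.27 (adjusted p = 0.0377), from 145 and 116 to 66.9 and 41.2 CPM, while it rose within macrophage-like cells, and T-like cells, which hold most of its counts, were a smaller share of the treated cells. Ccl8 and Cxcl9 fell by 1.03 (adjusted p = 0.0164) and 1.04 (adjusted p = 0.0467). Ccl6 rose by 0.93 (adjusted p = 0.0284), Ccl17 by 2.39 (adjusted p = 0.0346) and Ccl28 by 0.71 (adjusted p = 0.0454), and Ccl28 did not pass in any single class. Cxcl10, at 324 and 292 against 213 and 166 CPM, did not pass (adjusted p = 0.0807), nor did Ccl7, at 140.0 and 129.7 against 99.99 and 94.5 CPM (adjusted p = 0.0943). By edgeR 3 members rose (1.2% of genes) and 4 fell (1.53%) over all cells. By DESeq2 2 rose and 9 fell, for which the share of all genes is not given. Ccl17, Ccl28, Ccl5 and Cxcl9 each lost the call in at least 1 fit without a library. For Ccl17 the adjusted p was 0.127 and 0.0804 with control library 1 or 2 left out, and 0.138 with treated library 1 left out. For Cxcl9 it was 0.149 with control library 1 left out and 0.103 with control library 2 left out. For Ccl28 it was 0.0679 without control library 2 and for Ccl5 0.0720 without control library 1, and with stricter cells it was 0.0657 for Ackr4 and 0.0662 for Ccl6. On the receptor side, Ccr10, the receptor of Ccl28 on plasma cells, fell by 1.54 (adjusted p = 0.00311), and Ccr2 and Cx3cr1 fell by 0.88 and 0.55. The cytokines Ifng, Il17a and Il22 fell by 1.47, 2.26 and 1.33 over all cells, and the interferon-response gene Gbp2 by 0.72.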

How the data were processed

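RNA of dissociated mouse colon cells was counted per droplet barcode in 4 libraries. The deposited values are raw whole-number counts per gene and cell barcode, made by the authors with PISA v0.12b on GRCm38, per the file headers and the submitters' processing notes; no aligner is named in those sources. No barcode total was below 1001 counts, and the 38852 barcodes that passed had 200 genes or more and no more than 25% mitochondrial counts. Doublets were scored per library with Scrublet (scanpy 1.11.5), and the top 6% were removed. The remaining 36523 cells (median 3834 to 4491 counts a cell) were clustered with leidenalg 0.10.2 (2000 variable genes without chemokine genes, receptors or antigen-receptor segments, 30 principal components, 15 neighbours, resolution 1.0, and 2.0 for finer clusters). Genes were scaled before the principal components, a choice made after a first clustering had been seen. Cell names are serial numbers, of which 11590 occur in more than 1 library, and no cell had the same counts as a cell of another library. A cluster took a name from at least 3 of a type's markers raised by a log2 of 1.

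Counts were summed per class and library and tested with edgeR 4.0.16 (R 4.3.3; TMM scaling, filterByExpr, treatment as the only term, Benjamini-Hochberg over all genes of a class at 0.05). Levels across classes are plain CPM, with no interval, and cover the 4 libraries. The class by treatment term was tested with library as a factor. Standard errors are those of the fit. The genes, marker lists and related lists were chosen with earlier results of these data known. A member is named with its values in every class where it passed, and with its highest and next classes; up to 2 members a class with the lowest unadjusted p are named as not past the threshold, and of the related lists only genes that passed in a class where a member passed. On simulated counts, 59 of 100 genes changed 2-fold and 92 of 100 changed 4-fold were recovered in the macrophage-like sums. The values were 75 and 98 in the fibroblast-like sums, and 34 and 91 in the T-like sums. The simulation gave all genes of a class the same spread, so recovery of genes with a wider spread was not simulated. No other class was simulated. The 12 alternatives were DESeq2 1.42.0, no low-count filter, stricter cells (at least 500 genes, at most 10% mitochondrial), doublets kept, resolution 2.0, chemokine genes among the variable genes, genes not scaled, a replicate block, and each library left out. Gene positions are from the GENCODE annotation of GRCm38.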

Additional observations from a re-analysis of the deposited data

Results flagged for a closer look

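In 12 comparisons between classes, the change of a member had opposite signs in the 2 classes, its treated and control libraries did not overlap in either class, and the class by treatment term passed in edgeR (Benjamini-Hochberg adjusted). Other pairs passed the term but had overlapping libraries in a class or the same sign. They are given as log2 differences of the changes, treated over control, and no cause is weighed.

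Ccl4 changed by 1.84 less in T-like than in macrophage-like cells (-1.84, adjusted p = 1.82e-06), and by -3.05 against colonocyte-like cells (adjusted p = 0.00107), where it was scarce. Ccl5 changed by 1.67 more in macrophage-like than in T-like cells (adjusted p = 1.65e-05). Ccl6 changed by 0.87 more in goblet-like than in macrophage-like cells (adjusted p = 3.38e-05). Cxcl10 changed more in fibroblast-like cells than in 4 other classes, by 1.14 against T-like (adjusted p = 0.00405), 1.37 against colonocyte-like (adjusted p = 1.49e-04), 1.18 against glia-like (adjusted p = 0.00403) and 1.01 against goblet-like cells (adjusted p = 0.00436).

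Cxcl12 changed by 3.07 more in smooth-muscle-like than in glia-like cells (adjusted p = 3.53e-05). Cxcl2 changed more in colonocyte-like cells than in endothelial-like cells, by 2.53 (adjusted p = 1.58e-04), and than in goblet-like cells, by 2.22 (adjusted p = 5.38e-05). Ccl20 changed by 2.16 more in colonocyte-like than in goblet-like cells (adjusted p = 0.00330).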

How the results depend on the processing

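Of the 22 changes called in a class, 6 were called in every alternative run (Ackr4 in fibroblast-like cells, Cxcl12 and Ccl11 in smooth-muscle-like cells, Ccl4 in T-like cells, Ccl5 and Ccl8 in macrophage-like cells), 9 were lost in 1 or 2 alternatives and 7 in 3 or more; none turned direction. DESeq2 lost 6 of 21, stricter cells 7 of 21, and the fit without treated library 1 lost 7 of 22. The count over classes was 22, 15 with DESeq2, 18 with stricter cells, 30 with no low-count filter and 23 to 29 when single libraries were left out. Over all cells it was 7, 11 with DESeq2, 2 with stricter cells and 4 to 11 when single libraries were left out; the cause was not tested. With a replicate block, by library number, the counts were 32 over classes and 18 over all cells. The share of all genes called in each alternative is not given. The counts of members in the alternatives therefore only describe the runs. The differences between libraries 1 and 2 of each group had correlations of -0.25 to 0.02 between the groups. The labels do not say that library numbers pair samples, and whether same-numbered libraries share a batch was not tested. Changes not past the threshold that turned direction were Cxcl2 in epithelial-like cells of no further type (1.12, and -0.062 with doublets kept), Cxcl2 in glia-like cells (-0.95, 0.12 without control library 1 and, at the other end, -1.53 without control library 2) and Cxcl12 in lymphatic-like cells (1.34, and -0.012 with genes not scaled); the cause was not tested. Depth limits genes at a few CPM, such as Ccl20 and Cxcl2 in colonocyte-like cells, and classes of about 100 cells a library.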

Other observations

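In the finer endothelial-like cluster with Selp and Vwf, Ackr1 was at 409.5 and 302 against 592 and 330 CPM and did not pass (log2 change 0.39, edgeR adjusted p = 0.657). A cluster of 530 cells at the coarser clustering, led by Selp, Ackr1 and Rgs5 and without a name, went the other way, at 776 and 356 against 342 and 151 CPM with no overlap, and did not pass either (-1.16, adjusted p = 0.238). Cells whose clusters took no name were 1488, 1887, 2972 and 3092 in control libraries 1 and 2 and treated libraries 1 and 2.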
